A study of Mus musculus with 6 samples.

Results

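The 9 genes studied here mark mural cells, the cells wrapped around small vessels, and were followed in barcodes that the deposited table labels Endo, in the hypothalamus of 4 male ob/ob mice. The 9 genes were Acta2, Tagln, Myl9, Myh11, Rgs5, Vtn, Kcnj8, Abcc9 and Pdgfrb, of 16411 genes listed, and Endo held 1266 of 20151 barcodes (each barcode is 1 droplet counted as a cell). The members were selected on these same counts, for their presence within Endo and for a supposed absence from barcodes with Cldn5, so their levels, their co-detection and their relation to Cldn5 are given as a description with no test. Each mouse was leptin-deficient and 11 weeks old, had received 3 µg of FGF1 R50E into a cerebral ventricle, and was killed on day 5. FGF1 R50E is a mutant form of fibroblast growth factor 1. All mice belonged to this 1 group, so nothing here compares the treatment with a control. The labels name 6 such mice, and the table held barcodes of mice 3, 4, 30 and 34, which each gave 1 library.

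Mural cells comprise pericytes, which sit on capillaries, and vascular smooth muscle cells, which ring arterioles and larger vessels. Smooth muscle cells contract through actin and smooth muscle myosin, whereas pericytes are known for the receptor of PDGF-B, the growth factor by which endothelium recruits them, and for an ATP-sensitive potassium channel. Endothelial cells line the vessel lumen, and their tight junctions, which contain claudin 5 (Cldn5), form the blood-brain barrier. The 9 members were ordered by role. The contractile members were Acta2 (smooth muscle actin), Tagln (the actin-binding protein SM22), Myl9 (a regulatory light chain of myosin) and Myh11 (the smooth muscle myosin heavy chain). The pericyte members were Rgs5 (a regulator of G-protein signalling), Vtn (vitronectin, an adhesive glycoprotein), Kcnj8 and Abcc9 (the pore Kir6.1 and the regulatory subunit SUR2 of the potassium channel) and Pdgfrb (the PDGF-B receptor).

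Endo comprised 448, 174, 225 and 419 barcodes in mice 3, 4, 30 and 34, with a median of 1028.5, 1069.5, 949 and 1192 UMIs (unique molecular identifiers, that is, counted molecules). The label was checked against 22 endothelial markers. None of them was at 0 in Endo, and a barcode held a median of 11 of the 21 markers other than Cldn5, against 2 in VLMC and 0 or 1 in the other 7 labels. Cldn5 stood at 981 CPM in Endo (UMIs of the gene scaled to a sum of 1000000) and at no more than 40.2 in any other label. Libraries shared 194 of 19954 distinct barcode sequences, 2 of them in Endo. No barcode was removed as a doublet, and intervals cover counting error only.

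Many Endo barcodes carried several mural cell genes at once. UMIs of 2 or more different members were found in 602 of 1266 Endo barcodes, that is 47.6% (exact 95% binomial interval 44.8% to 50.3%). The share was 39.1% in mouse 3, 60.3% in mouse 4, 47.6% in mouse 30 and 51.3% in mouse 34, with a mean of 49.6% ± 8.82 (SD, n = 4). Mouse 3 was lowest and mouse 4 highest, and the SD between mice was 3.00 times that of binomial counting. A further 303 barcodes held exactly 1 member, most often Rgs5, and 361 held none. Just inside the limit of 2 members lay 158 barcodes with exactly 2, and 444 barcodes held 3 or more. No barcode held all 9, and 2 barcodes held 8. When every barcode was thinned to 500 UMIs, the share with 2 or more members was 35.1% ± 6.16 (SD, n = 4).

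Outside Endo, the share of barcodes with 2 or more members was highest in VLMC. In VLMC, the label of vascular and leptomeningeal cells, 26 of 68 barcodes (38.2%, exact 95% interval 26.7% to 50.8%) held 2 or more members. In the 7 remaining labels the share lay between 0.294% and 1.90%. Rgs5 shows the low level common to these labels, since it was found in 2.18% to 2.70% of barcodes in each of them, at median depths from 851 to 1771 UMIs, against 64.4% of Endo barcodes at a median of 1064 UMIs.

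**Figure D1:**
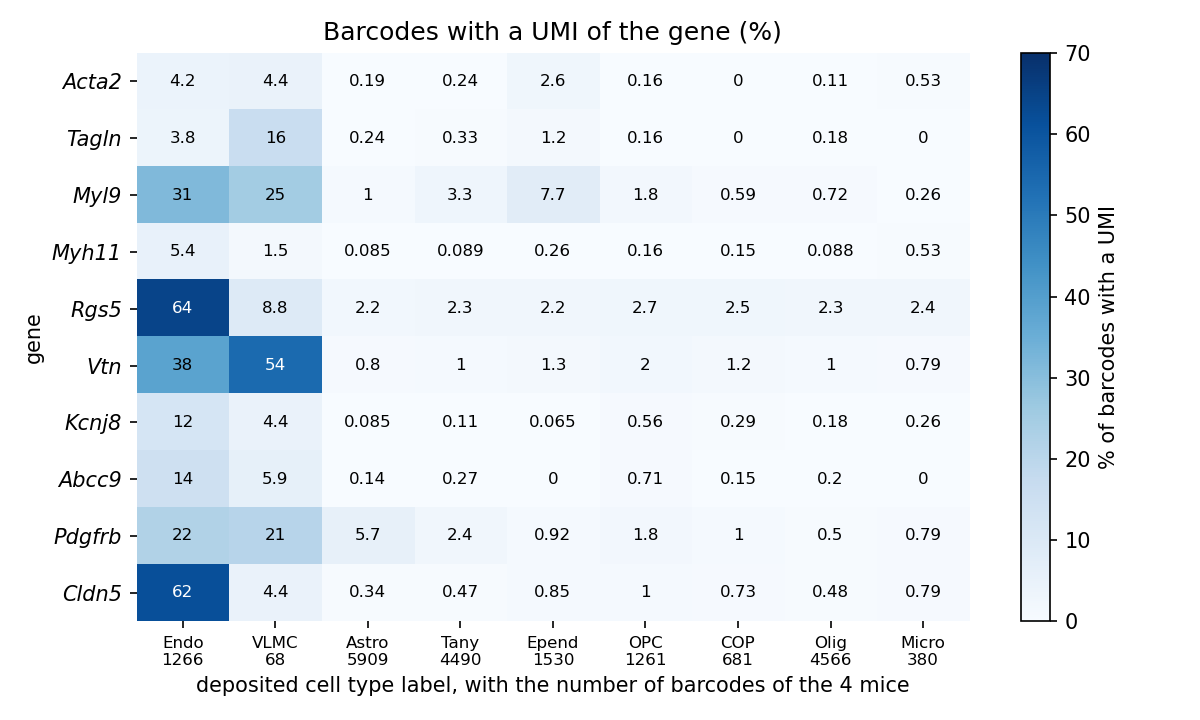
Percent of barcodes with at least 1 UMI of each member and of Cldn5 (rows) under each deposited label (columns, with the number of barcodes pooled over 4 mice), on a colour scale from 0 to 70%. Rgs5 reaches 64.4% in Endo and 8.82% in VLMC, while Vtn reaches 54.4% in VLMC and 38.4% in Endo.

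Among the contractile members, Acta2 and Tagln varied most between mice. Acta2 gave 76 UMIs in mouse 3, 1 in mouse 4, 44 in mouse 30 and 124 in mouse 34, or 130, 4.33, 167 and 203 CPM of the Endo sum. Tagln gave 36, 3, 18 and 69 UMIs in the same order, or 61.7, 13.0, 68.3 and 113 CPM. Mouse 4 was the lowest for both genes and also had the fewest Endo barcodes, and its single Acta2 UMI lies below the 3 counts taken as the floor. Myh11 differed less, with 39, 13, 19 and 55 UMIs, or 66.8, 56.3, 72.1 and 89.9 CPM. Myl9 was the most widespread of the contractile members, with 269, 82, 95 and 341 UMIs, or 461, 355, 361 and 558 CPM, in 28.6%, 31.6%, 26.7% and 36.5% of barcodes. Mice 4 and 30 were lower than mice 3 and 34 in Myl9 CPM.

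Acta2 and Tagln sat in few barcodes. Acta2 was found in 53 Endo barcodes (4.19%), and 10 of them held 58.8% of its UMIs, with up to 28 UMIs in 1 barcode. Tagln was found in 48 barcodes, and 10 held 51.6% of its UMIs. Myh11 was found in 68 barcodes, and Myl9 in 396 (31.3%), where the 10 richest held 14.9% of its UMIs.

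The contractile members share a known regulator, serum response factor, which binds the CArG box, and promoter windows are given as background. They do not cover Tagln and Myh11, whose co-detection ratios with Acta2, given below, were the highest. Promoter windows from RefSeq (build GRCm38.p6, 250 bases before to 50 bases after each gene's start) were found for 6 of the 9 members, namely Acta2, Myl9, Rgs5, Vtn, Kcnj8 and Abcc9, and those of Tagln, Myh11 and Pdgfrb were not analysed here. Capitals mark CArG boxes found with at most 1 mismatch; the motif reads the same on both strands. The windows of Acta2 (chr19:34255324-34255623, minus strand) and Myl9 (chr2:156775214-156775513, plus strand) each held 2, and that of Kcnj8 (chr6:142571565-142571864, minus strand) held 1.
Acta2: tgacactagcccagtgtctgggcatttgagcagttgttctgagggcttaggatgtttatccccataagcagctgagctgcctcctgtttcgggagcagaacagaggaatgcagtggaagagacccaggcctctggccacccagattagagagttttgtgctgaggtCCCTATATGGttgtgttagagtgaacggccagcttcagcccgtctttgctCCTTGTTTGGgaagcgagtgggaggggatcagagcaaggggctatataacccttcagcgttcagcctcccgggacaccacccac
Myl9: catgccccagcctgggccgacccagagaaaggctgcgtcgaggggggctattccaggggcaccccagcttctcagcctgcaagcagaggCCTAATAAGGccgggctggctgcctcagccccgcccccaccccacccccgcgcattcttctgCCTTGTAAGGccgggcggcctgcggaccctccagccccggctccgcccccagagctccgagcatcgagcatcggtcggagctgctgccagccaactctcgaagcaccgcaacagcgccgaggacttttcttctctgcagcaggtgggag
Kcnj8: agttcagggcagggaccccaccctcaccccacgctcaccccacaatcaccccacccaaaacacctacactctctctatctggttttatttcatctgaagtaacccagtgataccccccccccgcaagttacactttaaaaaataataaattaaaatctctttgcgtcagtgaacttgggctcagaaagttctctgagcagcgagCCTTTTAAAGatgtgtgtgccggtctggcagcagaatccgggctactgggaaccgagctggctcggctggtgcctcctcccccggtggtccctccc
The Acta2 boxes start 84 and 34 bases before the gene's start and each has 1 mismatch. Of the Myl9 boxes, 1 is exact, 161 bases before the start, and 1 has a mismatch, 99 bases before it. An exact box occurs in 1.57% of 27025 promoter windows, a box with at most 1 mismatch in 21.4%, and 2 or more such boxes in 3.74%. The windows of Rgs5, Vtn and Abcc9 held none. A match describes the letters only.

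Among the pericyte members, Rgs5 and Vtn were the most abundant. Rgs5 gave 970, 500, 604 and 1092 UMIs in mice 3, 4, 30 and 34, or 1661, 2166, 2292 and 1786 CPM. It was found in 57.1%, 74.7%, 69.8% and 64.9% of barcodes, and in 815 of 1266 in all. Vtn gave 651, 222, 225 and 669 UMIs, or 1115, 962, 854 and 1094 CPM. Mice 3 and 34 were higher than mice 4 and 30 in Vtn, and the order was the opposite in Rgs5. Pdgfrb gave 121, 82, 63 and 156 UMIs, or 207, 355, 239 and 255 CPM, with mouse 4 the highest.

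The channel genes Kcnj8 and Abcc9 were both lowest in mouse 30. Kcnj8 gave 77, 30, 18 and 65 UMIs, or 132, 130, 68.3 and 106 CPM. Abcc9 gave 78, 44, 17 and 99 UMIs, or 134, 191, 64.5 and 162 CPM. They were found in 150 and 182 barcodes, nearly always at low counts, since 122 and 142 of those barcodes held a single UMI. The genes are neighbours on chromosome 6, both on the minus strand and 16247 bases apart in the GENCODE annotation of GRCm38.

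**Figure D2:**
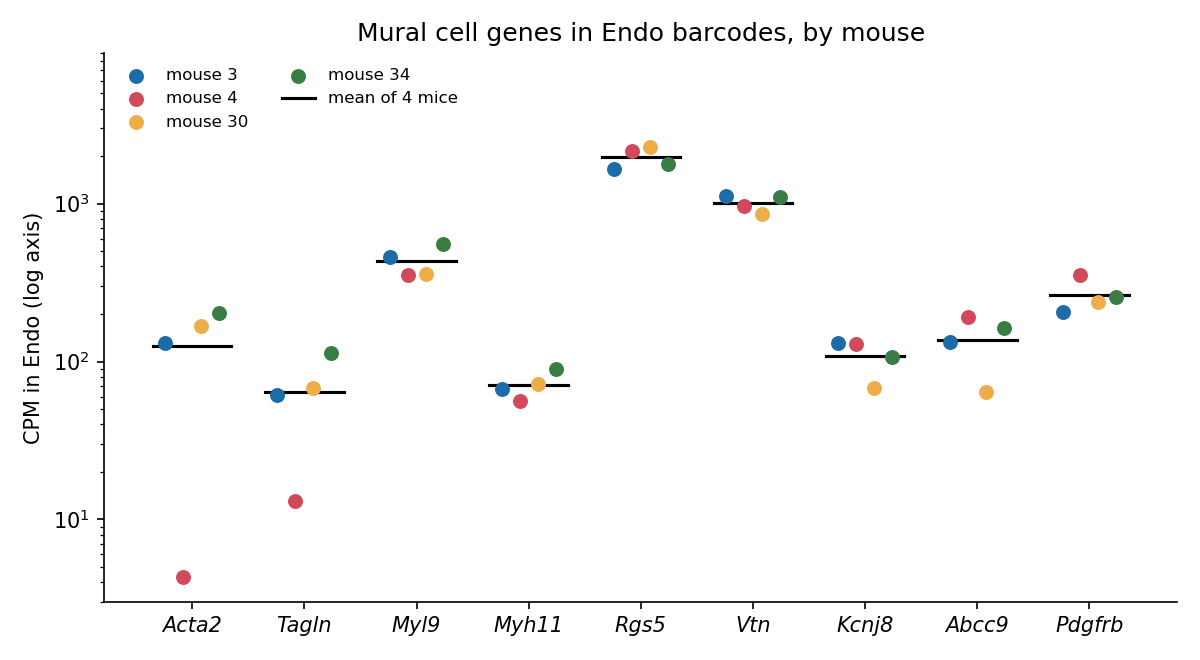
CPM in the Endo sum of each mouse (log axis) for the 9 members, where points are mice and bars are means of 4 mice. Acta2 spans 4.33 to 203 across mice, against 1661 to 2292 for Rgs5. UMIs were counted at transcript 3′ ends, so no correction for length was applied.

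Endo had the highest pooled level of 7 members, and VLMC of Tagln and Vtn. In CPM over the pooled barcodes, Rgs5 stood at 1874 in Endo and 153 in VLMC, and Myh11 at 74.6 and 32.2. Pdgfrb stood at 250 and 137. In Rgs5 the mice did not overlap between the labels, even with VLMC values of 0 set at the floor of 3 counts. In Myh11 the VLMC sums of mice 3, 4 and 34 held no UMI, where 3 counts would be 536, 136 and 239 CPM, above every Endo value, so these mice cannot be placed below Endo. In Pdgfrb the same holds for mouse 3, with no UMI, and mouse 34, with 1, was under its floor. Tagln stood at 370 in VLMC and 74.6 in Endo, Vtn at 1737 and 1046, and the mice overlapped in both genes, as they did in Acta2, Myl9, Kcnj8 and Abcc9. VLMC rests on 6, 12, 44 and 6 barcodes in mice 3, 4, 30 and 34, so its values in 3 of the mice come from sums of under 20 barcodes. In mouse 30 alone, the 44 VLMC barcodes held 188 Vtn UMIs (2234 CPM) and 42 Tagln UMIs (499 CPM), but 1 Kcnj8 UMI and 2 Abcc9 UMIs.

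Pdgfrb and the contractile genes were also found under some other labels. Pdgfrb was found in 336 of 5909 Astro barcodes (5.69%), at 64.8 ± 5.18 CPM (SD, n = 4), and 25 of these 336 barcodes held another member. In Olig, Pdgfrb was found in 0.504% of barcodes, at a median of 1136 UMIs per barcode against 851 in Astro. Astro held 36.0% of all Pdgfrb UMIs, against 42.5% in Endo. In Epend, Myl9 was found in 7.71% and Acta2 in 2.61% of barcodes. Abcc9 gave no UMI in 1530 Epend barcodes and Myh11 gave 4.

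The members were found together within Endo more often than their separate frequencies give. For each pair, the number of barcodes with both genes was divided by the number from the product of their shares within each mouse, summed over mice. Deeper barcodes hold more of every gene, so the same ratio was taken for 210 pairs of endothelial markers, where its median was 1.07 (1.04 after thinning). Since a barcode held a median of 11 of the 21 markers, many of these are widespread and cannot reach a high ratio, so 1.07 is not a matched reference for the rarer members. Across the 36 pairs of members the median was 1.75, and it was 1.57 after thinning to 500 UMIs. All points come from the same 4 libraries, so the ratios are a description.

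Contractile pairs had the highest ratios. Rarer genes can reach higher ratios, and Acta2, Tagln and Myh11 were found in few barcodes, so the sets are not ranked on equal terms. Their 6 pairs had a median ratio of 6.78 (10.2 after thinning). Acta2 and Tagln shared 35 barcodes where 2.22 were given by their shares, a ratio of 15.7. The ratio was 15.3, 18.8 and 14.8 in mice 3, 30 and 34, and mouse 4 had 1 shared barcode. Acta2 with Myh11 gave 10.7 and Tagln with Myh11 11.3, whereas the pairs with the widespread Myl9 gave 2.29 to 2.84.

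The 10 pericyte pairs had a median of 2.09 (2.26 after thinning). The channel subunits Kcnj8 and Abcc9 shared 62 barcodes where 22.5 were given by their shares, a ratio of 2.76, the largest of the 10, with 2.29 to 3.22 in the single mice. Pairs with Rgs5 were the lowest, at 1.38 to 1.51. A gene found in 64.4% of barcodes cannot reach a high ratio.

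Between the contractile and the pericyte genes the median over 20 pairs was 1.40. Myl9 went with the pericyte genes, at 1.39 with Rgs5 and 2.22 with Kcnj8. Acta2 and Tagln did not share barcodes with the channel genes beyond their frequencies. Acta2 shared 5 barcodes with Kcnj8 where 6.30 were given, and 5 with Abcc9 where 7.61 were given, while Tagln shared 2 with Kcnj8 where 5.79 were given. These numbers are small. Both genes shared barcodes with Pdgfrb, at ratios of 1.74 and 1.90.

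**Figure D3:**
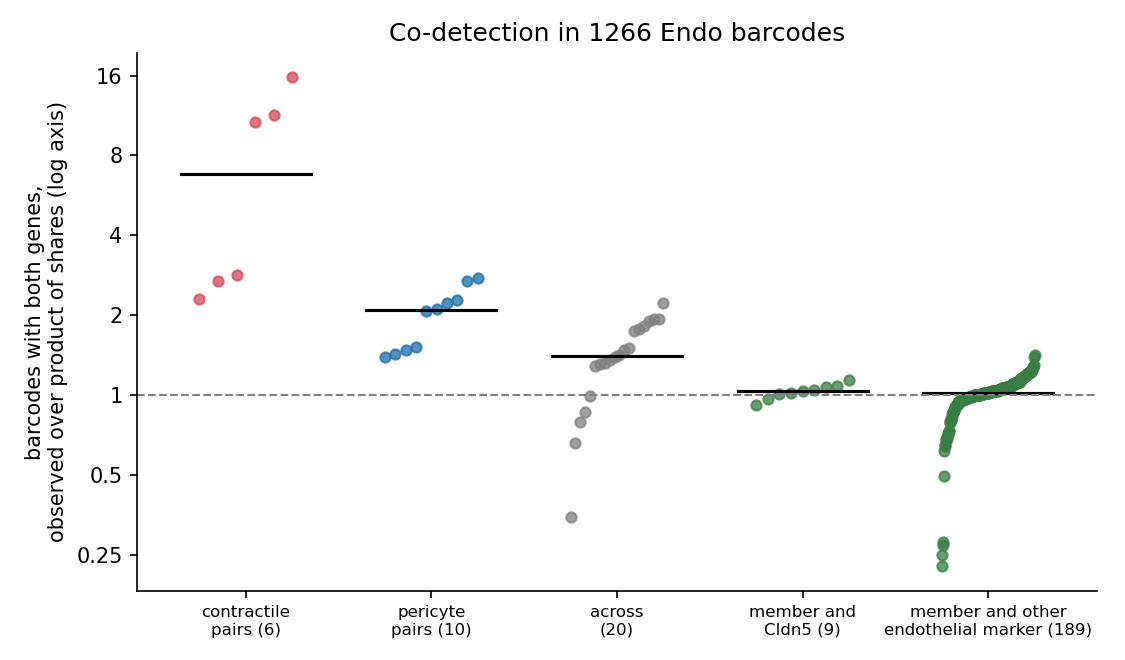
Barcodes with both genes of a pair, as the ratio of the observed number to the number from the product of shares within each mouse (log axis, dashed line at 1), for contractile pairs, pericyte pairs, pairs across, and members with Cldn5 or with 21 other endothelial markers. Points are pairs and bars are medians, which lie at 6.78, 2.09, 1.40, 1.03 and 1.02 from left to right. After thinning, not drawn, the last 2 medians are 0.940 and 0.879.

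Barcodes with 3 or 4 contractile members formed a small group. There were 41 of them, 14, 1, 6 and 20 in mice 3, 4, 30 and 34. They held 89.4% of the Acta2 UMIs of Endo, a share that the choice by contractile genes itself raises. In these 41, Kcnj8 was found in 2 (4.88%) and Abcc9 in 5 (12.2%), while Rgs5 was found in 36 (87.8%) and Pdgfrb in 17 (41.5%). Over all Endo barcodes, Kcnj8 was found in 11.8%, Abcc9 in 14.4%, Rgs5 in 64.4% and Pdgfrb in 22.1%. In the other 561 barcodes with 2 or more members, which hold pericyte members largely through the way the class is defined, Kcnj8 was found in 26.0%, Abcc9 in 31.2% and Pdgfrb in 46.3%, and Rgs5 in 533 of the 561. The order thus depends on the barcodes compared, since the 41 lay above all Endo barcodes in Rgs5 and Pdgfrb and below the 561 in all 4 genes. The 41 were deeper, at a median of 1649 UMIs per barcode against 1064 in Endo.

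Each member was also set against the other 8, so that its own UMIs did not enter the classes. Vtn stood at 1797 CPM in 524 barcodes with 2 or more other members and at 93.8 in 385 with no other member. For Rgs5 the values were 2811 and 761, so that Rgs5 was the member most often found alone, in 40.5% of 607 barcodes with no other member. Myl9 stood at 773 and 60.1 CPM. Acta2 gave 244 UMIs (252 CPM) in 602 barcodes with 2 or more others and 1 UMI in 362 with none. Kcnj8 gave 181 (188 CPM) in 595 and 2 in 363, and Abcc9 gave 227 (237 CPM) in 593 and 2 in 363. The counts with no other member lie below the floor of 3 and come from fewer barcodes, so no ratio is given.

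The mural cell genes were not absent from barcodes with Cldn5. A Cldn5 UMI was found in 62.4% ± 16.6 of barcodes with no member, in 63.1% ± 6.25 of those with 1 and in 64.8% ± 8.80 of those with 2 or more (SD, n = 4 for each). From none to 2 or more members, the share went from 56.3% to 65.1% in mouse 3, from 86.7% to 77.1% in mouse 4, from 49.1% to 57.9% in mouse 30 and from 57.8% to 59.1% in mouse 34. It was thus higher in 3 mice and lower in mouse 4, where only 30 barcodes held no member. The mean difference of 2.38 percentage points lay within its SD of 8.70.

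Depth moves with this comparison. Barcodes with 2 or more members had a median of 1347 UMIs and those with none 879 (means of 4 mice). After thinning to 500 UMIs, Cldn5 was found in 40.5% ± 15.3 of barcodes with no member, 40.4% ± 4.49 with 1 and 34.0% ± 8.21 with 2 or more (SD, n = 4 for each). The mean difference thus had the opposite sign after thinning. Mouse 4 went from 63.3% to 45.7% and mouse 34 from 34.5% to 26.5%, whereas mice 3 and 30 went from 33.1% to 32.0% and from 30.9% to 31.8%. As a level, Cldn5 stood at 1094 ± 444, 1156 ± 229 and 978 ± 276 CPM in the 3 classes (SD, n = 4 for each).

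The other 21 endothelial markers were likewise present in every class. They summed to 27.4 ± 4.55 UMIs per barcode with no member, 30.1 ± 1.67 with 1 and 33.1 ± 4.42 with 2 or more (SD, n = 4 for each). In CPM their sum was 25122 ± 1152, 26859 ± 2324 and 21479 ± 1135. The class with 2 or more members was lower in CPM than the class with none in each of the 4 mice. In UMIs per barcode it was higher in mice 3, 30 and 34, and in mouse 4 it went from 34.1 to 33.0. The median doublet score deposited by the authors was 0.0605 ± 0.0129 with no member and 0.0681 ± 0.00791 with 2 or more (SD, n = 4 for each). It was higher with 2 or more members in 3 mice and lower in mouse 30 (0.0769 with none, 0.0564 with 2 or more). Without the highest 10% of doublet scores, the mean Cldn5 difference was 4.93 percentage points, against 2.38 with all barcodes. What part doublets had in the result beyond this was not tested.

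**Figure D4:**
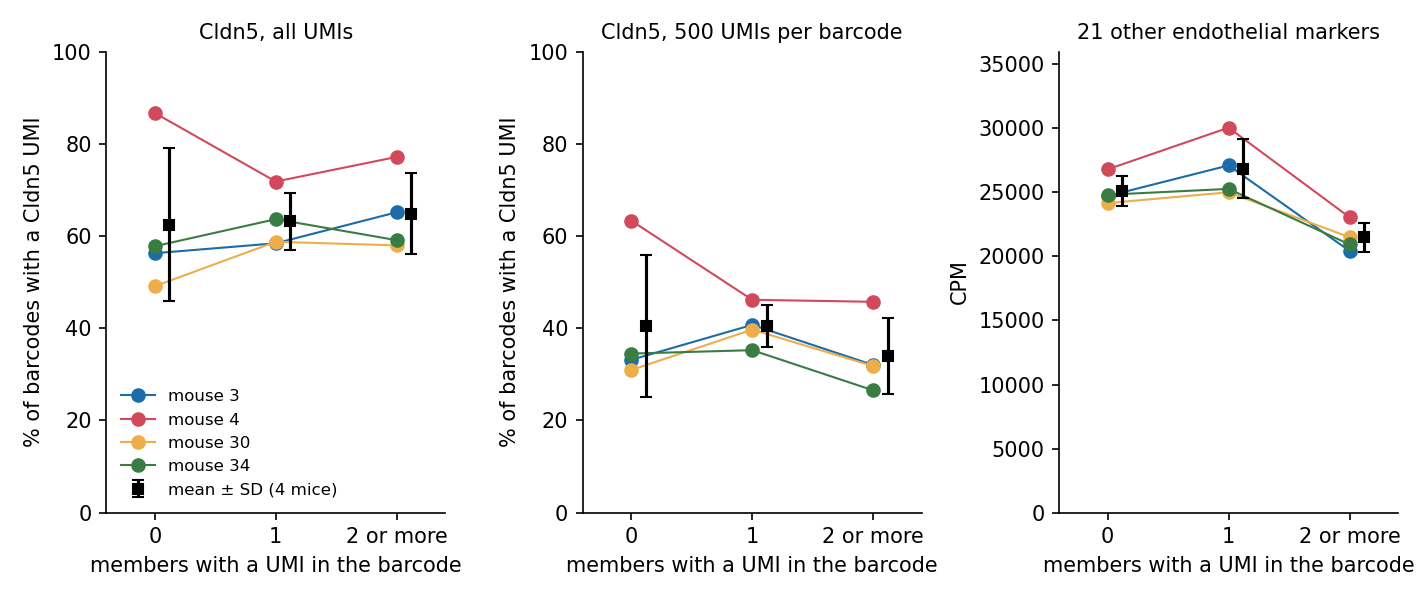
Percent of Endo barcodes with a Cldn5 UMI, for all UMIs (left) and at 500 UMIs per barcode (middle), and the summed CPM of 21 other endothelial markers (right), by the number of members with a UMI. Coloured points are mice, black squares with bars are means ± SD of 4 mice, and the Cldn5 share with 2 or more members is 64.8% before thinning and 34.0% after.

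Gene by gene and over all mice together, Cldn5 was found less often beside Acta2 and Tagln. For the other 7 members the direction changed with depth. Mouse 3 went the other way, with Cldn5 in 75% of 20 barcodes with Acta2 against 59.6% of those without it. For Tagln in mouse 3, the shares were 78.9% of 19 and 59.4%. In mouse 34 they were 41.7% of 24 against 60.8% for Acta2 and 45% of 20 against 60.4% for Tagln. Mice 4 and 30 were lower too, on 1 and 8 barcodes with Acta2 and 3 and 6 with Tagln. Of 815 barcodes with Rgs5, 523 (64.2%) held Cldn5, against 57.2% of those without Rgs5. The share was 62.8% of 486 barcodes with Vtn, 71.4% of 182 with Abcc9 and 66.8% of 280 with Pdgfrb, against 61.0%, 60.1% and 60.2% of the barcodes without the gene. Of 53 barcodes with Acta2, 29 (54.7%) held Cldn5, against 62.0% of those without, and barcodes with Acta2 were deeper, at a median of 1780 against 1043 UMIs. Members and Cldn5 had co-detection ratios between 0.917 and 1.14 with a median of 1.03. After thinning the ratios lay between 0.603 and 0.977 with a median of 0.940, below 1 for all 9 members. With the other 21 endothelial markers, the median over 189 pairs was 1.02 and became 0.879 after thinning, with Acta2 going from 0.943 to 0.620 and Myh11 from 0.953 to 0.595.

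Pooled over mice, a smaller part of the contractile UMIs than of all UMIs lay in barcodes with Cldn5, and mice differed. Barcodes with Cldn5 held 69.2% of all Endo UMIs, but 38.8% of the Acta2 UMIs, 45.2% of Tagln, 51.6% of Myh11 and 57.6% of Myl9. The pericyte genes lay between 67.9% and 72.7%. In mice 30 and 34 all 4 contractile genes lay below the share of all UMIs (62.0% and 67.3%), with Acta2 at 22.7% and 33.1%. In mouse 3, where that share was 68.5%, Acta2 (57.9%) and Myl9 (63.9%) lay below it and Tagln (72.2%) and Myh11 (74.4%) above. In mouse 4, where it was 84.2%, Myl9 was at 79.3% and Myh11 at 84.6%, and Acta2 and Tagln had 1 and 3 UMIs.

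A few barcodes held members with hardly any endothelial RNA. Only 13 of the 602 barcodes with 2 or more members held under 3 of the 21 endothelial markers, and no barcode with fewer members did. All of these barcodes carried the Endo label, so the absence among those with fewer members is a description only. The limit of 3 was chosen after the values were seen. The 13 came from mouse 3 (7) and mouse 34 (6), and 1 of them held a Cldn5 UMI. All 6 of mouse 34 held the 4 contractile members, without Kcnj8 or Abcc9, the richest with 24 Acta2, 9 Tagln, 19 Myl9 and 4 Myh11 UMIs. In mouse 3, 6 of the 7 held at most 1 contractile member beside Vtn (2 to 17 UMIs). The 13 held 32.7% of the Acta2 UMIs of Endo and 1.36% of those of Rgs5. Without them, 57.6% of the Acta2 UMIs lay in barcodes with Cldn5, 64.8% of those of Tagln, 64.5% of Myl9 and 65.0% of Myh11, and 69.4% to 73.3% of those of the pericyte genes.

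The remaining 589 barcodes with 2 or more members hold both sets of genes by this choice. They held the 21 endothelial markers at 21501 CPM and the members at 6424 CPM (all pooled over mice). Whether both sets of RNA in a barcode came from 1 cell was not tested. Deposited clusters did not separate them. At the authors' resolution 0.4, 1 cluster held 586 of the 602 barcodes with 2 or more members and also 359 of the 361 with none. A second cluster held 20 Endo barcodes, 16 of them with 2 or more members, at a median doublet score of 0.179 and with oligodendrocyte markers at 17902 CPM, against 2231 in the main cluster.

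Genes outside the members were then compared between Endo barcodes with 2 or more members and those with none, summed per mouse. The sums held 968784 and 379847 UMIs over 4 mice. The test was the edgeR quasi-likelihood F test with mouse as a block and Benjamini-Hochberg adjustment over all genes tested. Members and Cldn5 were left out of the counts. Of 2322 genes tested, 79 (3.40%) were called higher and 6 (0.258%) called lower, where a call needed a log2 fold change beyond 1 as well as an adjusted p below 0.05. At the adjusted p alone, 111 (4.78%) were higher and 96 (4.13%) lower, and the lower ones numbered 15 with DESeq2, 16 with no mouse block, 52 without mouse 3 and 29 without mouse 34. The higher ones numbered 49 with DESeq2 and 63 without mouse 3. The 6 called lower became 11 without mouse 3, 11 without mouse 4, 7 without mouse 30 and 2 without mouse 34. They numbered 1 with DESeq2, 2 with no mouse block, 12 without a filter on low counts, 0 after thinning (of 794 genes tested, with 32 past the adjusted p downward) and 1 with thinning before the classes. A gene could pass the filter on low counts through the class where it is high, and the class with members had the larger sum. The counts of higher and lower calls are thus not on equal terms. Without the filter, 201 of 13908 genes were called higher. The median log2 fold change of all genes tested was -0.01. The 4 mice are separate animals, but each barcode was classed by its own UMIs, and depth differed between the classes as given above.

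Other pericyte genes were higher in barcodes with members. All 10 of the 10 tested genes of that list (12 listed) were called higher, where 3.40% of all genes were, with a median log2 fold change of 4.38, or 3.90 with Art3 at the bound that 3 counts allow. Some of the 10 passed the filter on low counts through the class where they are high, so this count is no independent support. Without the filter, 11 of the 12 were called higher, as were 201 of 13908 genes. Higd1b, a mitochondrial membrane protein gene used as a pericyte marker, stood at 827 ± 162 CPM against 26.8 ± 17.5 (SD, n = 4 for each), a log2 fold change of 5.09 ± 0.26 (SE, adjusted p = 2.46e-18, edgeR, higher in 4 of 4 mice). Notch3, the Notch receptor of mural cells, stood at 293 ± 20.4 against 15.2 ± 20.4, a log2 fold change of 4.62 ± 0.42 (adjusted p = 5.06e-11, edgeR). When thinning came before the classes, the log2 fold changes of Higd1b and Notch3 were 3.23 and 3.66. Notch3 was 6.92 with thinning after the classes, 3.79 without mouse 3 and 5.41 without mouse 4, and both genes were past the adjusted p under every alternative. Cox4i2, a subunit of cytochrome c oxidase, gave 166 UMIs against 2, a ratio per UMI of 32.5 with an exact 95% counting interval of 8.87 to 271. P2ry14, a receptor of UDP-sugars, gave 146 against 2, a ratio of 28.6 (interval 7.78 to 239). Its fitted log2 fold change of 4.62 was 3.83 without mouse 3, 5.40 without mouse 4 and 5.29 without mouse 30. Art3, of the ADP-ribosyltransferase family, gave 84 UMIs against 0 and was at least 11.0-fold higher, taking a floor of 3 counts over the group.

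Among other smooth muscle genes, 5 of 8 tested (18 listed) were called higher, where 3.40% of all genes were, and none lower, with a median log2 fold change of 1.10. The filter bears on this count as on that of the pericyte list, and without it 9 of 16 were called higher, with a median of 1.90. The 5 became 3 with DESeq2, with no mouse block, without mouse 3 and without mouse 34, and 2 with classes of 1 or more members. Cald1, caldesmon, which binds actin and tropomyosin, stood at 1122 ± 200 CPM against 153 ± 21.3 (SD, n = 4 for each), a log2 fold change of 2.92 ± 0.17 (SE, adjusted p = 4.10e-17, edgeR). Mylk, the kinase that phosphorylates myosin light chains, stood at 289 ± 71.7 against 53.1 ± 22.6, with a log2 fold change of 2.38 ± 0.26 (adjusted p = 3.35e-09, edgeR). Flna (filamin A) and Tpm1 (a tropomyosin) had log2 fold changes of 1.25 ± 0.35 and 1.19 ± 0.20 (adjusted p = 0.0154 and 2.91e-05, edgeR). Each of the 4 genes was higher in 4 of 4 mice, and Flna was not past the adjusted p with DESeq2 (0.438), with no mouse block (0.130), without mouse 3 (0.225) or without mouse 34 (0.157).

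Genes of signalling between endothelium and mural cells were split. Of 16 tested, 6 were past the adjusted p upward and 2 downward, where 4.78% and 4.13% of all genes were, with a median log2 fold change of 0.24. The list shares Notch3 and Heyl with the pericyte list and Eng and Tek with the endothelial markers. As with the pericyte list, genes could pass the filter through the class where they are high, and without the filter 8 of 26 were past the adjusted p upward and none downward. The 6 became 3 with DESeq2, without mouse 3 and without mouse 34, and 4 with no mouse block. The subunits of soluble guanylate cyclase, the receptor for nitric oxide, were both called higher. Gucy1b3 gave 153 UMIs against 3, a ratio per UMI with an exact 95% counting interval of 6.71 to 98.0 (fitted log2 fold change 4.22, and 3.08 without mouse 3), and Gucy1a3 gave 127 against 5, with a log2 fold change of 3.21 ± 0.46 (SE, adjusted p = 1.23e-06, edgeR). Cdh2, N-cadherin, which joins pericytes to endothelium, had a log2 fold change of 1.24 ± 0.37 (adjusted p = 0.0246, edgeR), which became 0.700 with DESeq2, 0.127 with no mouse block and 0.162 without mouse 34. The 2 lower genes, named after their values were seen, were Nos3, the endothelial nitric oxide synthase (-0.84 ± 0.23, adjusted p = 0.0109, edgeR), and S1pr1, a sphingosine-1-phosphate receptor (-0.42 ± 0.14, adjusted p = 0.0451, edgeR). Neither was past the threshold with DESeq2, without a filter on low counts or without mouse 34, nor was S1pr1 with no mouse block, after thinning, or without mouse 3 or mouse 30 (adjusted p = 0.187 and 0.0891 without these mice, edgeR; without mouse 34, 0.0834 for Nos3 and 0.393 for S1pr1). Pdgfb, the ligand of Pdgfrb, stood at 209 ± 23.4 CPM against 151 ± 57.1 (adjusted p = 0.591, edgeR).

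Endothelial markers were somewhat lower, a result that depended on the fit, and none was called. Of 21 tested besides Cldn5, 10 were past the adjusted p downward, where 4.13% of all genes were, none was past it upward, and the median log2 fold change was -0.27. Tie1, an endothelial receptor tyrosine kinase, stood at 103 ± 24.6 CPM against 159 ± 22.9 (SD, n = 4 for each), a log2 fold change of -0.79 ± 0.24 (SE, adjusted p = 0.0289, edgeR, lower in 4 of 4 mice). The transporters Slco1a4 and Slco1c1 and the secreted Egfl7 had log2 fold changes of -0.47 ± 0.10, -0.45 ± 0.13 and -0.45 ± 0.10 (adjusted p = 0.000486, 0.0152 and 0.00141, edgeR). Slco1a4 was lower in 2 of 4 mice. None of the 21 was past the adjusted p with DESeq2, without a filter on low counts or with no mouse block, 4 were without mouse 3 and 2 were without mouse 34, while the median stayed between -0.39 and -0.16 over all alternatives. The UMIs of mural genes are part of the total of the class that holds them, so levels in CPM are not independent of each other.

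**Figure D5:**
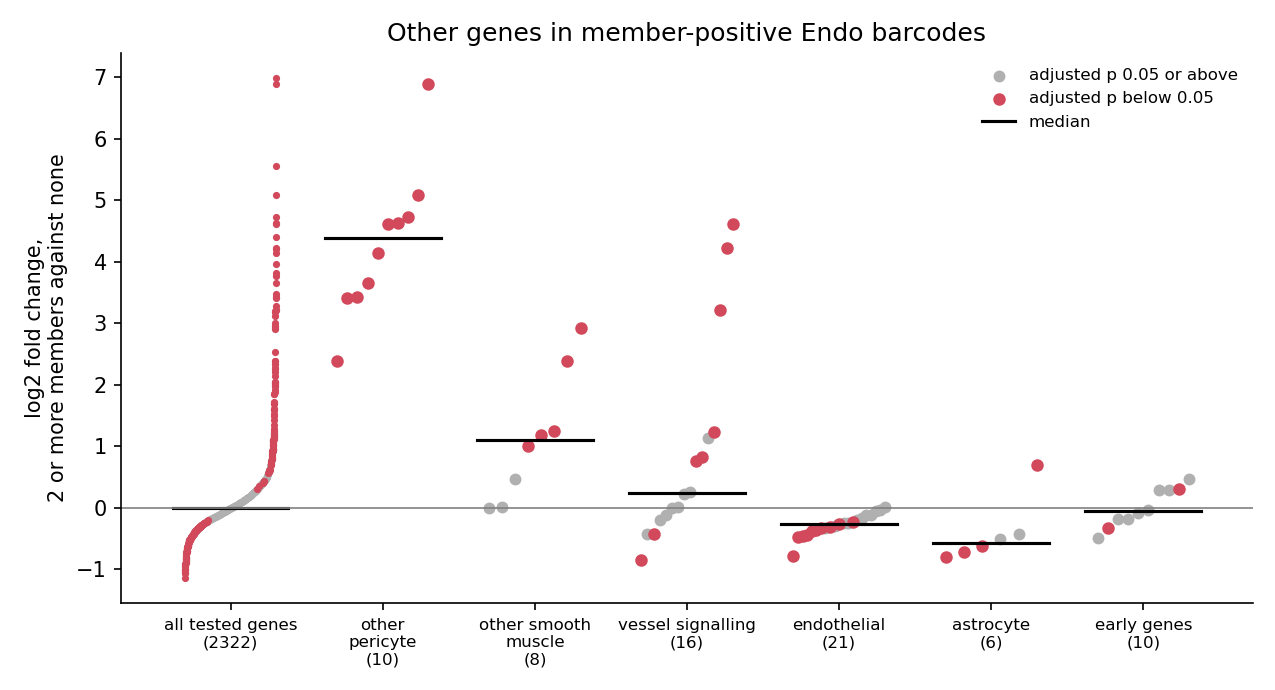
Log2 fold change of Endo barcodes with 2 or more members against those with none, for all 2322 genes tested and 6 gene lists (number tested in brackets), with members and Cldn5 left out. Red points are past an adjusted p of 0.05 in the edgeR test and black bars are medians, at 4.38 for other pericyte genes and -0.27 for endothelial markers.

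Apart from the lists, the genes of largest change included a few transporters and noncoding RNAs. Slc6a20a, an amino acid transporter, gave 187 UMIs in barcodes with members against 3, a ratio per UMI of 24.4 (exact 95% counting interval 8.24 to 120). Slc19a1, the reduced folate carrier, gave 162 against 3, a ratio of 21.2 (interval 7.12 to 104). Gm13861 gave 153 against 1, a ratio of 60.0 (interval 10.6 to 2385). With 1 mouse left out the fitted log2 fold changes moved, and they rest on at most 3 UMIs in barcodes with no member. These genes could pass the filter on low counts through the class where they are high. Slc6a20a went from 4.41 to 3.68 without mouse 3 and 7.69 without mouse 34, Slc19a1 from 4.20 to 4.93 without mouse 3 and 3.60 without mouse 34, and Gm13861 from 5.56 to 4.75 without mouse 3 and 8.03 without mouse 4. Tbx3os1, an antisense RNA beside Tbx3, gave 88 against 0 and was at least 11.5-fold higher by the same floor, and the sources used here do not say whether counting used strand. Among the 6 genes called lower, Gpm6a, a membrane glycoprotein gene of neural cells, had a log2 fold change of -1.06, Tmem252 had -1.04 and Mt2, a metallothionein, had -1.01, and each of these was lower in all 4 mice. Mt2 was past the adjusted p under every alternative. Tmem252 was not past it with DESeq2 (0.522), with no mouse block (0.407), without a filter on low counts (0.0708), with classes of 1 or more members (0.0785), without mouse 30 (log2 fold change -0.62, 0.465) or without mouse 34 (0.0930). Gpm6a was not past it with DESeq2 (0.264), after thinning (log2 fold change -0.48, 0.447), with thinning before the classes (log2 fold change -0.28, 0.711) or with member-positive barcodes without Cldn5 only (0.110).

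Likeness to the members was measured by the share of a gene's Endo UMIs that lay in barcodes with 2 or more members, over the 4989 genes with at least 50 UMIs in Endo. Those barcodes held 57.3% of all Endo UMIs, and the median gene had 58.8% of its UMIs there. Apart from the members, the most alike were Zic4 (97.0% of 67 UMIs), Plxdc1 (96.8% of 63), Ano1, a calcium-activated chloride channel (96.8% of 93), P2ry14 (96.7% of 151) and Slc30a10, a manganese transporter (96.6% of 58). Pcolce, Ttr, Cox4i2, Tbx3os1 and Atp2a3, an endoplasmic reticulum calcium pump, followed with 95.6% to 96.2%. Ttr, the transthyretin gene of the choroid plexus, owed its place to 6 barcodes of 2 mice. The members themselves lay between 84.1% (Rgs5) and 99.6% (Acta2), which the classes fix.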

How the data were processed

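The study dissociated hypothalamus and made 10x Chromium 3' v2 libraries. The submitters' processing notes name Cell Ranger 1.2 and Seurat, and the builds GRCm38, mm10 and GRCh38, with no role or order. The authors deposited raw UMI counts per gene and barcode, which were used as deposited, together with a doublet score as a fraction, a mitochondrial percent, clusters and cell type labels per barcode. How the labels and the doublet scores were made is not given in the sources used here. The table also held 12 libraries that match no labelled sample and were not used, and mice 12 and 37 had no barcodes in it. The members and gene lists were chosen with earlier results of these data known.

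Levels are CPM, that is, UMIs scaled to a sum of 1000000 per mouse and label. Shares have exact (Clopper-Pearson) 95% intervals, and a floor is 3 counts. Thinning drew 500 UMIs per barcode without replacement (seed 20). Every Endo barcode held at least that many. The sums of the 2 classes (at least 10 barcodes each) were tested by quasi-likelihood in edgeR 4.0.16 (R 4.3.3), using TMM, filterByExpr and a mouse block, since both sums of a pair come from 1 mouse. Deviations from the class means correlated at 0.13 to 0.19 within a mouse and at -0.12 to 0.10 between mice. Fold changes are on edgeR's log2 scale. DESeq2 1.42.0 was an alternative. Python 3.11.15, numpy 2.4.6, pandas 2.3.3, scipy 1.17.1 and matplotlib 3.10.9 were used for the rest.

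Genes named were the members and Cldn5, the 10 of largest and of smallest log2 fold change among called genes with the same sign in every mouse, up to 4 genes of largest change past the threshold per list, and the 10 of greatest likeness. Exceptions are marked. A gene that this rule also takes is not reported here.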

Additional observations from a re-analysis of the deposited data

Results flagged for a closer look

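Of 29 values screened over the 4 mice, 1 had a mouse far from the other 3. Kcnj8 was found in 7.56% of Endo barcodes in mouse 30 (17 of 225), against 12.4% to 13.2% in mice 3, 4 and 34. Chance flags about 5% of such groups of 4. Its level in CPM was not set apart in this way.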

How the results depend on the processing

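The share of Endo barcodes with 2 or more members (49.6%) was 73.7% for 1 or more members, 34.9% for 3 or more, 35.1% after thinning and 36.7% without Rgs5, the last chosen after seeing the data. It moved by less than its SD without the highest 10% of doublet scores, without the cluster rich in oligodendrocyte markers (chosen after seeing the data) and among barcodes without Cldn5, and lay between 46.0% and 53.1% with 1 mouse left out. The Cldn5 difference of 2.38 percentage points became -6.46 after thinning, and lay between 0.213 and 6.35 with 1 mouse left out. The members together stood at 4188 CPM in Endo, at 3869 as a mean over barcodes and at 3983 after thinning, and between 4129 and 4262 with 1 mouse left out. The median co-detection ratio over 36 pairs lay between 1.69 and 1.83 with 1 mouse left out. The 85 genes called became 48 with DESeq2 (47 higher, 1 lower), 213 of 13908 without a filter on low counts, 23 of 794 tested after thinning, 34 of 931 with member-positive barcodes without Cldn5 only, and 22 of 722 when thinning came before the classes (chosen after seeing the data). With no mouse block, 67 were called, and all 67 were among the 85. With 1 mouse left out, 67 to 104 were called. With member-positive barcodes of 3 or more endothelial markers only, a choice made after seeing the data, 80 of the 85 were called again. Of 485 log2 fold changes of named genes under these alternatives, 111 were no longer past the adjusted p, and 2 reversed, both of Pdgfb, which was not past it in any case (-0.058 after thinning and -0.14 with member-positive barcodes without Cldn5). The cause of these shifts was not tested. Of the 13908 genes with UMIs, 2322 passed the filter on low counts.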

Other observations

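Genes of other cell types also differed between Endo barcodes with 2 or more members and those with none (edgeR, as above). Of the 10 listed genes of vascular leptomeningeal cells, Igf2, an insulin-like growth factor, was the 1 that passed the filter on low counts, which it could do through the class where it is high, and was higher, at 214 ± 111 CPM against 31.1 ± 26.6 (SD, n = 4 for each), with a log2 fold change of 2.96 ± 0.38 (SE, adjusted p = 1.25e-07, edgeR). The list as a whole summed to 409 ± 249 against 96.4 ± 64.9 CPM, and Slc47a1 was at 0 in Endo. Rarres2, the chemerin gene, on the ependymal list, had a log2 fold change of 1.92 ± 0.30 (adjusted p = 5.61e-06, edgeR). The list for FGF and ERK signalling held receptors as well as genes that respond to it. Of its 4 tested genes, Phlda1 was the 1 called higher, where 3.40% of all genes were, at 1.84 ± 0.33 (adjusted p = 8.55e-05, edgeR). It gave 148 UMIs against 16 and could pass the filter through the class where it is high. By sign, 2 of the 4 were higher and 2 lower, with a median log2 fold change of 0.30. All mice had received FGF1 R50E, so a response to it was not tested.

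Of 6 astrocyte genes tested, 3 were lower and 1 higher past the adjusted p, where 4.13% and 4.78% of all genes were. Agt, Slc1a3 and Aldoc had log2 fold changes of -0.80, -0.71 and -0.62 (adjusted p = 0.0203, 0.00262 and 0.000525, edgeR), and Atp1b2 had 0.70 (adjusted p = 0.0175, edgeR). Mbp, the myelin basic protein gene, had -0.70 (adjusted p = 5.61e-09, edgeR). The astrocyte list summed to 1597 ± 188 CPM with 2 or more members and to 2217 ± 716 with none, and the oligodendrocyte list to 2356 ± 614 against 3040 ± 913 (SD, n = 4 for each). Of the 10 immediate early genes that tissue dissociation is known to induce, Egr1 had 0.31 (adjusted p = 0.0496, edgeR) and Jun -0.33 (adjusted p = 0.0137, edgeR), and their sum was 9905 ± 1475 against 9792 ± 1642. No gene of the microglia and tanycyte lists was tested, and of the neuron (1 tested) and blood (2 tested) lists none was past the adjusted p. With DESeq2 or with no mouse block, none of these 6 astrocyte genes, nor Egr1 or Jun, was past the adjusted p, and with no mouse block Mbp was not (adjusted p = 0.0890, edgeR). After thinning, Slc1a3 and Aldoc had log2 fold changes of -0.25 and -0.33 (adjusted p = 0.603 and 0.303, edgeR). Without the highest 10% of doublet scores, Agt and Slc1a3 had -0.39 and -0.46 (adjusted p = 0.417 and 0.0680, edgeR). With member-positive barcodes without Cldn5 only, no astrocyte gene was past the adjusted p downward, and Mbp had -0.21 (adjusted p = 0.204, edgeR). With 1 mouse left out, Egr1 was not past the adjusted p in any of the 4 fits (adjusted p = 0.0935, 0.171, 0.159 and 0.162 without mouse 3, 4, 30 and 34, edgeR). Jun was not past it without mouse 3 (0.438) or 34 (0.226), Agt without mouse 4 (0.275) or 34 (0.0610), Atp1b2 without mouse 30 (0.107) or 34 (0.234), and Aldoc without mouse 34 (0.0632, all adjusted p from edgeR). What part these differences have in the results above was not tested.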
